A study of Homo sapiens with 27 samples.

Results

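The set described here holds 10 genes of the NF-κB pathway, out of 26255 gene symbols measured: the 5 subunit genes NFKB1, NFKB2, RELA, RELB and REL, the inhibitor genes NFKBIA and NFKBIE, and the feedback or target genes TNFAIP3, BIRC3 and TNFAIP2. Members were chosen by gene symbol, and all 10 were found. RNA-seq was performed on 3 human colorectal cancer lines, HCT116, SW480 and DLD-1, each as cells resistant to fluorouracil (5-FU res), cells resistant to oxaliplatin (OX res) and untreated parental cells (WT), with 3 libraries in each of the 9 groups and 27 libraries in all. According to the labels, resistant cells were cultured for about 6 months in 5 to 70 µM fluorouracil, a pyrimidine analogue, or 5 to 35 µM oxaliplatin, a platinum compound that crosslinks DNA, at doses below the lethal range. All 3 are established lines with no genetic modification named in the labels. Neither the number of separate selections behind a resistant group nor the origin of its 3 libraries (1 culture or several) is given in the labels. The p-values below therefore rest on the spread among libraries alone, part or all of which may be technical.

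NF-κB proteins are transcription factors that act as dimers and wait in the cytoplasm, bound by IκB inhibitors, until receptors of the TNF, interleukin-1 or Toll-like families are engaged. In the classical route an IκB kinase marks the inhibitor for destruction and frees dimers of RELA or REL with p50, the product of NFKB1. In the alternative route the kinase NIK promotes processing of the NFKB2 product p100 to p52, which pairs with RELB. The genes of several subunits and inhibitors are themselves targets of NF-κB, which gives the pathway its feedback, and in the intestinal epithelium the pathway is known for its roles in inflammation and cell survival.

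NF-κB binds a DNA element called the κB site, so the promoters of the members are shown first. RefSeq promoters (GRCh38.p14, 250 bases before to 50 bases after a transcription start) were matched for 8 of the 10 members. None was matched for RELB and NFKBIE. The 8 members had 12 starts among them, and each window was searched on both strands for the κB consensus. It occurred in 7 promoters of 6 members, NFKB1, NFKB2, REL, NFKBIA, TNFAIP3 and BIRC3, and in 5.91% of all 35116 promoters in the table. No match was found in the windows of RELA and TNFAIP2. The AP-1 motif TGANTCA was in none of the 12 windows and in 7.71% of all promoters, and the GC box GGGCGG was in 45% of all promoters. The stretches around the κB matches are given below for the 6 members with a match. They run 5′ to 3′ on the strand of the gene, with the matched bases in capitals. Overlapping matches are joined, as in REL and NFKB2, and the 3 motifs do not overlap each other within these stretches.
NFKB1 (chr4:102501285-102501344, plus strand): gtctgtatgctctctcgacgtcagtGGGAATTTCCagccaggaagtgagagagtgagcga
NFKB2 (chr10:102394446-102394534, plus strand): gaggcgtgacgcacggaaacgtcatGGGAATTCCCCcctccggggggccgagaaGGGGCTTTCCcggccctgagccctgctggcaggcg
REL (chr2:60881502-60881562, plus strand): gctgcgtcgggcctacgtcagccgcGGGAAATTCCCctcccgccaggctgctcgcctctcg
NFKBIA (chr14:35404796-35404855, minus strand): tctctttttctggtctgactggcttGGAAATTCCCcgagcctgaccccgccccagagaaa
TNFAIP3 (chr6:137867167-137867238, plus strand): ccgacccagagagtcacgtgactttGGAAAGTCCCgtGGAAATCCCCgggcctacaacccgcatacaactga
BIRC3 (chr11:102317260-102317383, plus strand): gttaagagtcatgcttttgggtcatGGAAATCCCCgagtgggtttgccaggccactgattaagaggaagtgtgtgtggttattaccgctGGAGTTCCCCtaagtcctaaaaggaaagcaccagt
NFKB2 and REL carry symmetrical cores in which matches on the opposite strands overlap, and the NFKB2 stretch holds a further, separate match. TNFAIP3 and BIRC3 carry a pair of separate matches each. Another promoter of NFKB2, not printed, holds 2 separate matches. A match describes the letters of the window and was not tested for binding in these cells.

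Values are TPM, the deposited FPKM (fragments scaled by transcript length and by mapped reads) divided by the sum of the library and rescaled to one common total. FPKM sums ran from 451767 to 804635, and the relative depth of the libraries, estimated from the steps between low FPKM values, from 0.722 to 1.13 of HCT116 WT replicate 1. Within groups the correlation of log2(TPM + 1) across genes was 0.991 to 0.995. A gene was called when limma, fitted on log2(TPM + 1), gave a Benjamini-Hochberg adjusted p under 0.05 over all genes tested and a log2 fold change beyond 1. Fold changes on this scale understate those of genes near 1 TPM. The scaling matters in HCT116 and SW480: over all genes the median log2 fold change was 0.18 for 5-FU res and 0.60 for OX res of HCT116, 0.44 and 0.36 for those of SW480, and -0.027 and 0.13 for those of DLD-1, so changes are also given relative to that median. The keratins KRT8, KRT18 and KRT19 and EPCAM were detected in every group, as for epithelial cells. In groups where members were higher, some of the 8 epithelial markers were lower and others higher. EPCAM averaged 68.2 TPM in HCT116 OX res against 392 TPM in HCT116 WT, and 105 and 221 TPM in SW480 5-FU res and OX res against 323 TPM in SW480 WT. CDH1, which encodes E-cadherin, averaged 3.64 TPM in HCT116 OX res against 29.0 TPM in HCT116 WT, and 3.12 and 3.03 TPM in SW480 5-FU res and OX res against 16.9 TPM in SW480 WT. CDX2 averaged 5.66 and 29.9 TPM in SW480 5-FU res and OX res against 44.4 TPM in SW480 WT. Others went up. EPCAM averaged 488 TPM in HCT116 5-FU res, above HCT116 WT. KRT8 and KRT18 averaged 3564 and 2604 TPM there, also above HCT116 WT. In HCT116 OX res KRT19 averaged 1523 TPM and CDX2 17.3 TPM, against 1194 and 15.1 TPM in HCT116 WT. KRT8 and KRT18 averaged 4632 and 3716 TPM in SW480 5-FU res and 4959 and 4840 TPM in SW480 OX res, against 4183 and 3573 TPM in SW480 WT. VIL1 averaged 10.9 TPM in SW480 5-FU res against 6.38 TPM in SW480 WT. The part of these differences in the results was not tested. CDX1 was at or under 0.445 TPM in all groups and VIL1 at or under 0.278 TPM in HCT116 and DLD-1. Of 7 leukocyte markers, PTPRC and CD3E had group means at or under 0.589 TPM throughout, but the summed level was 58.7 to 71.4 TPM in HCT116 OX res and 17.0 to 19.6 TPM in HCT116 5-FU res against 18.9 to 19.9 TPM in HCT116 WT, of which CD68, a lysosomal protein gene, made up a mean of 61.5 TPM in OX res and 16.6 TPM in 5-FU res against 15.4 TPM in WT. In SW480 the sum was 29.6 to 33.0 TPM in 5-FU res and 25.2 to 29.7 TPM in OX res against 8.71 to 9.98 TPM in WT, and its part in the results below was not tested.

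**Figure D1:**
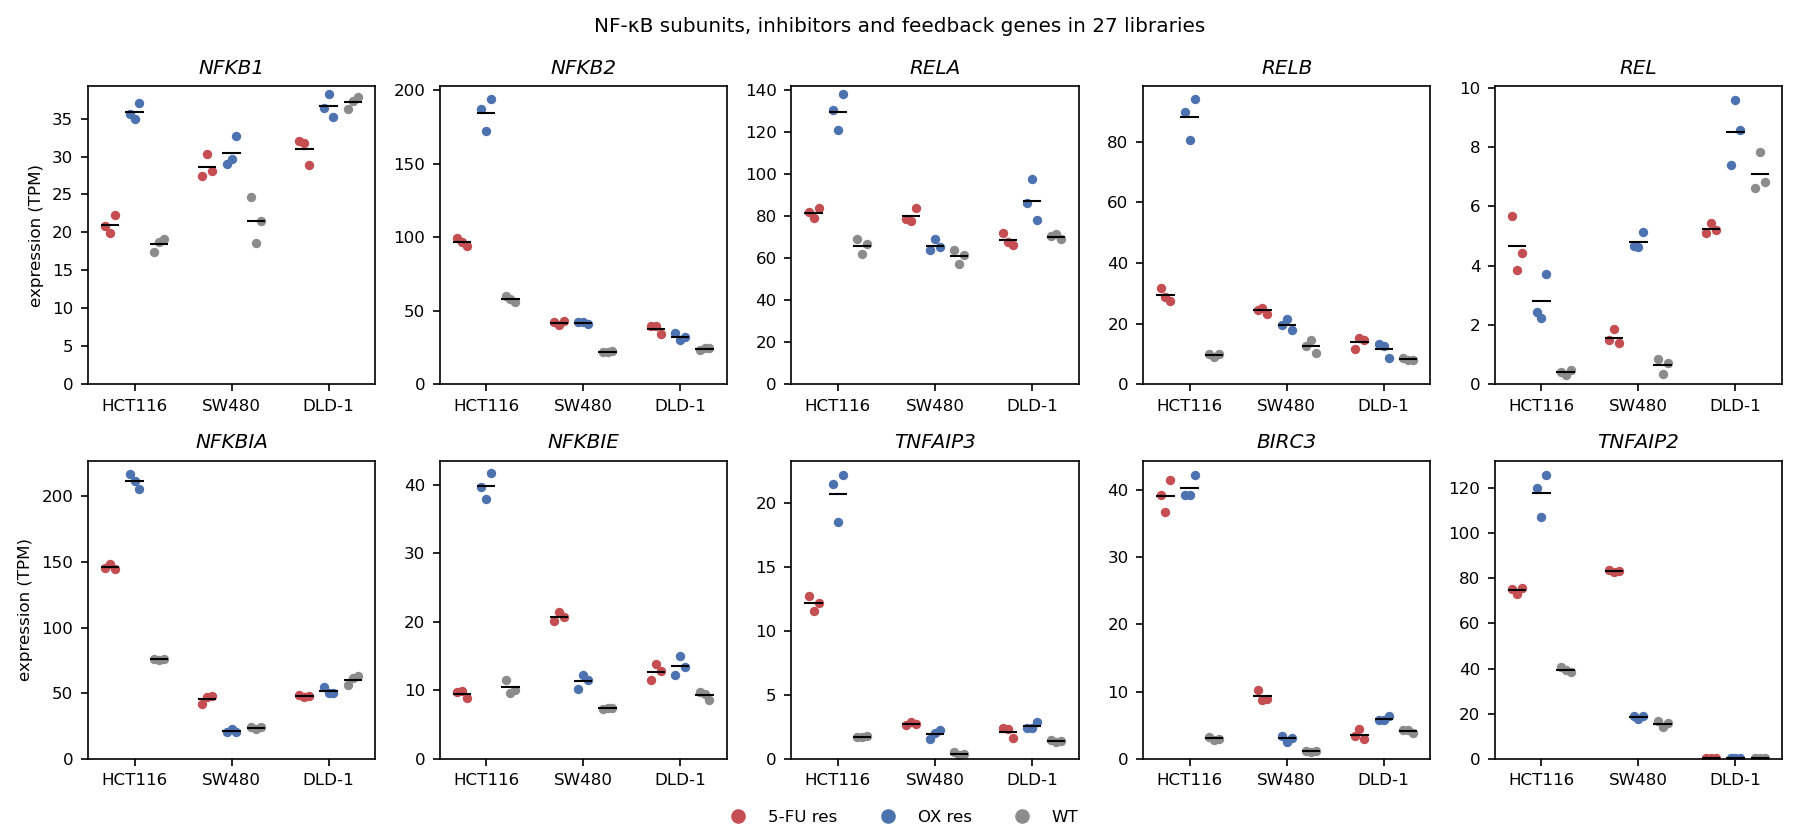
Expression of the 10 members in TPM (linear vertical axes from 0) in each of 27 libraries; points are libraries, bars group means, and within each line 5-FU res, OX res and WT stand from left to right. HCT116 OX res had the highest group mean of 8 members, at 40.2 TPM for BIRC3 and 20.7 TPM for TNFAIP3, and TNFAIP2 stayed at or under 0.494 TPM in all 9 DLD-1 libraries.

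The members moved with line and drug. In HCT116 OX res, 8 of 10 members were called higher and 0 lower, against 28.5% of all genes called higher and 4.83% called lower. In HCT116 5-FU res, 4 of 10 were called higher and 0 lower, against 11.6% higher and 3.82% lower. In SW480 5-FU res, 4 of 10 were called higher and 0 lower, with 18.3% higher and 2.85% lower among all genes. In SW480 OX res, 2 of 10 were called higher and 0 lower, a share near the 13.7% called higher, with 1.22% called lower. In DLD-1, limma called 0 of 9 members tested in 5-FU res (all genes: 2.12% higher, 1.76% lower) and 0 of 9 in OX res (all genes: 2.7% higher, 0.913% lower). In each of the DLD-1 resistant groups 7 of these 9 had an adjusted p under 0.05 whatever the size of the change, as did 46.4% of all genes in 5-FU res and 49.8% in OX res, and 7 in 5-FU res and 8 in OX res had an unadjusted p under 0.05. The median log2 fold change of the members was 0.92 for 5-FU res and 1.6 for OX res of HCT116, 0.92 and 0.59 for those of SW480, and -0.035 and 0.42 over the 9 tested in DLD-1 5-FU res and OX res, beside the medians of all genes given above. With median-of-ratios scaling, which centres the typical gene near 0, 5 of 10 members were called higher in HCT116 OX res (1426 of 14010 genes) and 4 in 5-FU res (999 genes), while SW480 had 3 such members in 5-FU res (1149 of 14039 genes) and 1 in OX res (781 genes). REL in HCT116 and REL and TNFAIP3 in SW480 reached 1 TPM only in resistant libraries and so passed the filter on low values through those, and counts that include them lean to higher values. Fewer cells of a kind and less RNA per cell cannot be told apart in such bulk samples.

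**Figure D2:**
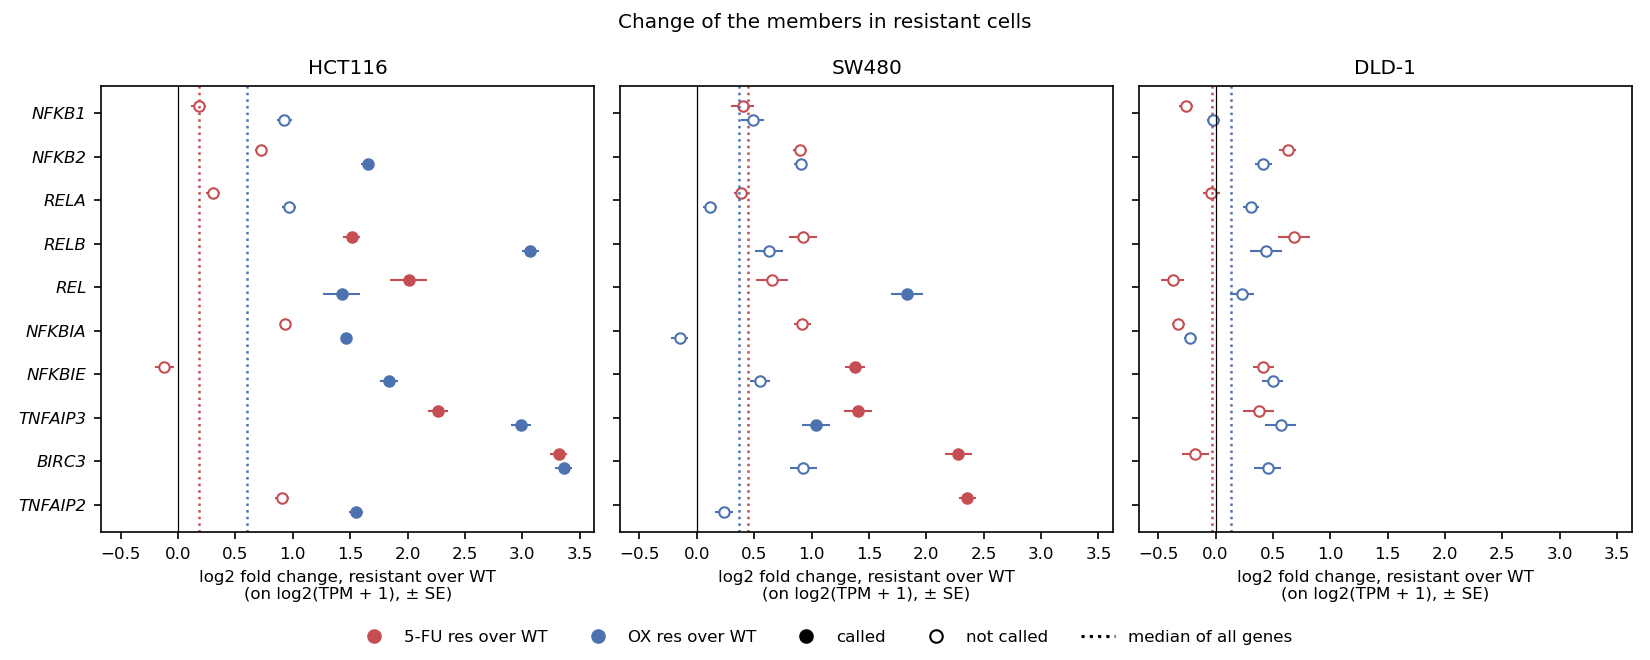
Log2 fold change of resistant over WT cells for each member on the log2(TPM + 1) scale, in 3 lines; bars are standard errors from limma, filled points are called, and dotted lines mark the median of all genes in the same comparison. In HCT116, BIRC3 stood at 3.32 and 3.36 for 5-FU res and OX res, whereas no member passed 1 in DLD-1, where TNFAIP2 was too low to be tested.

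Among the subunits, RELB, the partner of p52 in the alternative route (chr19:45504719-45541450, GRCh37), changed the most in HCT116 OX res. It was measured at 31.7, 28.6 and 27.6 TPM in 5-FU res and 89.8, 80.6 and 94.1 TPM in OX res, against 9.99, 8.89 and 9.93 TPM in WT. The 3 groups did not overlap. On the log2 scale RELB was higher by 1.51 ± 0.077 in 5-FU res (SE, n = 3 against 3, limma adjusted p = 1.2e-08) and by 3.07 ± 0.077 in OX res (limma adjusted p = 1.3e-11), or by 1.33 and 2.47 relative to the median gene. In SW480 it was 24.5, 25.1 and 23.3 TPM in 5-FU res and 19.4, 21.5 and 18 TPM in OX res, against 12.6, 14.6 and 10.1 TPM in WT. These groups did not overlap with WT either, but the log2 fold changes of 0.93 ± 0.12 and 0.63 ± 0.12 stayed under the threshold of 1. Relative to the median gene they were 0.48 and 0.27. Without SW480 WT replicate 2, the highest of the WT libraries, the 5-FU res value was 1.04 and passed. With FPKM as deposited, quantile normalization and median-of-ratios scaling, RELB was at 0.48, 0.42 and 0.45 in SW480 5-FU res. In SW480 OX res it was at 0.21, 0.16 and 0.21, and its libraries overlapped WT in FPKM as deposited. DLD-1 had 11.7, 15.1 and 14.6 TPM in 5-FU res and 13.3, 12.7 and 8.66 TPM in OX res, against 8.57, 7.95 and 7.89 TPM in WT. All 6 DLD-1 resistant libraries were above the WT libraries, with log2 fold changes of 0.69 ± 0.14 and 0.44 ± 0.14 that were not called.

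NFKB2 encodes p100, the precursor of p52 that also acts as an inhibitor (chr10:104153867-104162281, GRCh37). It was 99.2, 96.5 and 94 TPM in HCT116 5-FU res and 187, 172 and 194 TPM in HCT116 OX res, against 59.9, 58 and 55.9 TPM in WT. No HCT116 group overlapped another. The log2 fold change was 0.73 ± 0.053 in 5-FU res and 1.65 ± 0.053 in OX res, where it was called (limma adjusted p = 7.5e-11) but was 0.99 with median-of-ratios scaling, just under the threshold. SW480 had 42.3, 39.9 and 43.2 TPM in 5-FU res and 42.3, 42.5 and 40.9 TPM in OX res, against 21.6, 21.9 and 22.3 TPM in WT. Both resistant groups of SW480 were above WT by nearly the same amount, 0.90 ± 0.059 and 0.90 ± 0.059 on the log2 scale, with no call. Relative to the median gene NFKB2 was at 0.46 and 0.54 in them, and with median-of-ratios scaling at 0.41 and 0.47. In DLD-1 it was 39.7, 39.6 and 33.8 TPM in 5-FU res and 34.9, 30.2 and 32 TPM in OX res, against 23, 24.4 and 24.5 TPM in WT. NFKB2 was thus above all WT libraries of the line in each of the 18 resistant libraries, at log2 fold changes of 0.63 ± 0.075 and 0.42 ± 0.075 in DLD-1, and was so in FPKM as deposited too. For RELB this held in 18 of 18 libraries in TPM but in 15 in FPKM as deposited. The share of all genes that lay above WT in this way was not computed. Between 46.4% (DLD-1 5-FU res) and 86.2% (HCT116 OX res) of all genes had a limma adjusted p under 0.05 against WT, in either direction.

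REL encodes c-Rel, a subunit best known from lymphocytes (chr2:61108626-61158747, GRCh37), and had the lowest transcript level of the subunits in every group. HCT116 had 5.69, 3.85 and 4.44 TPM in 5-FU res and 2.43, 2.24 and 3.73 TPM in OX res, against 0.418, 0.3 and 0.469 TPM in WT. All resistant libraries were above WT, with ratios of mean TPM of 11.8 and 7.07 and log2 fold changes of 2.01 ± 0.16 (limma adjusted p = 4.4e-07) and 1.43 ± 0.16 (limma adjusted p = 4.3e-06). The WT libraries were under 1 TPM, where the ratio and the fold change rest on few reads and on the pseudocount. The call in HCT116 OX res was lost with FPKM as deposited (0.85) and quantile normalization (0.84). SW480 had 1.48, 1.86 and 1.37 TPM in 5-FU res and 4.65, 4.62 and 5.14 TPM in OX res, against 0.856, 0.345 and 0.725 TPM in WT. Here OX res was the higher of the resistant groups, at 1.83 ± 0.14 (limma adjusted p = 1.4e-06), while 5-FU res was at 0.66 ± 0.14 and not called. With a pseudocount of 0.1 in place of 1, the SW480 5-FU res value was 1.23 and passed. DLD-1 started from a higher level, with 5.09, 5.42 and 5.21 TPM in 5-FU res and 7.4, 9.6 and 8.57 TPM in OX res, against 6.63, 7.83 and 6.84 TPM in WT. The 5-FU res libraries were below WT and the OX res libraries overlapped WT, at -0.37 ± 0.10 and 0.23 ± 0.10 on the log2 scale.

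RELA, the main activating subunit of the classical route (chr11:65421070-65430561, GRCh37), and NFKB1, which encodes p105 and p50 (chr4:103422487-103538459, GRCh37), varied the least of the members, by 2.13-fold and 2.02-fold between the highest and the lowest group mean. RELA averaged 81.5 ± 2.26 TPM in HCT116 5-FU res and 129.7 ± 8.49 TPM in OX res, against 65.9 ± 3.57 TPM in WT (SD, n = 3 each). NFKB1 averaged 21 ± 1.2, 35.9 ± 1.11 and 18.4 ± 0.937 TPM in HCT116 5-FU res, OX res and WT. Neither was called in any comparison of resistant with WT cells. Their largest log2 fold changes were in HCT116 OX res, at 0.97 ± 0.058 for RELA and 0.93 ± 0.065 for NFKB1, or 0.37 and 0.33 relative to the median gene. The signs of NFKB1 in HCT116 5-FU res and SW480 5-FU res and of RELA in both resistant groups of SW480 turned under other scalings. RELA just passed 1 in HCT116 OX res without HCT116 WT replicate 1, and without OX res replicate 2 it was 1.02. In SW480 RELA averaged 79.9 ± 3.25, 65.8 ± 2.72 and 60.9 ± 3.54 TPM and NFKB1 28.6 ± 1.47, 30.5 ± 1.96 and 21.6 ± 3 TPM in 5-FU res, OX res and WT. In DLD-1 RELA averaged 68.5 ± 3.17, 87.4 ± 9.78 and 70.2 ± 1.25 TPM, and NFKB1 30.9 ± 1.77, 36.6 ± 1.53 and 37.2 ± 0.791 TPM in the same order. NFKB1 was lower in DLD-1 5-FU res than in WT, by a log2 fold change of -0.26 ± 0.058, without overlap of the groups and without a call.

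The summed level of the 5 subunit genes was 233 ± 5.71 TPM in HCT116 5-FU res and 441 ± 28.2 TPM in OX res, against 152 ± 4.38 TPM in WT. In SW480 it was 176 ± 2.99 and 163 ± 4.13 TPM in 5-FU res and OX res, against 117 ± 5.64 TPM in WT, and in DLD-1 156 ± 6.71 and 176 ± 13 TPM, against 147 ± 2.11 TPM. The composition shifted as well. RELB made up 12.6 ± 0.675% of the sum in HCT116 5-FU res and 20.0 ± 0.315% in OX res, against 6.3 ± 0.27% in WT, and RELA made up 35 ± 0.978% and 29.4 ± 0.116%, against 43.2 ± 1.17%. In SW480 RELA made up 45.3 ± 1.09% and 40.5 ± 0.645% in 5-FU res and OX res, against 51.8 ± 1.16% in WT. In DLD-1, where NFKB1 had its largest share, NFKB1 was 19.8 ± 0.29% and 20.8 ± 0.743% of the sum in 5-FU res and OX res, against 25.4 ± 0.514% in WT, and NFKB2 was 24.1 ± 1.15% and 18.4 ± 2.08%, against 16.3 ± 0.456%.

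**Figure D3:**
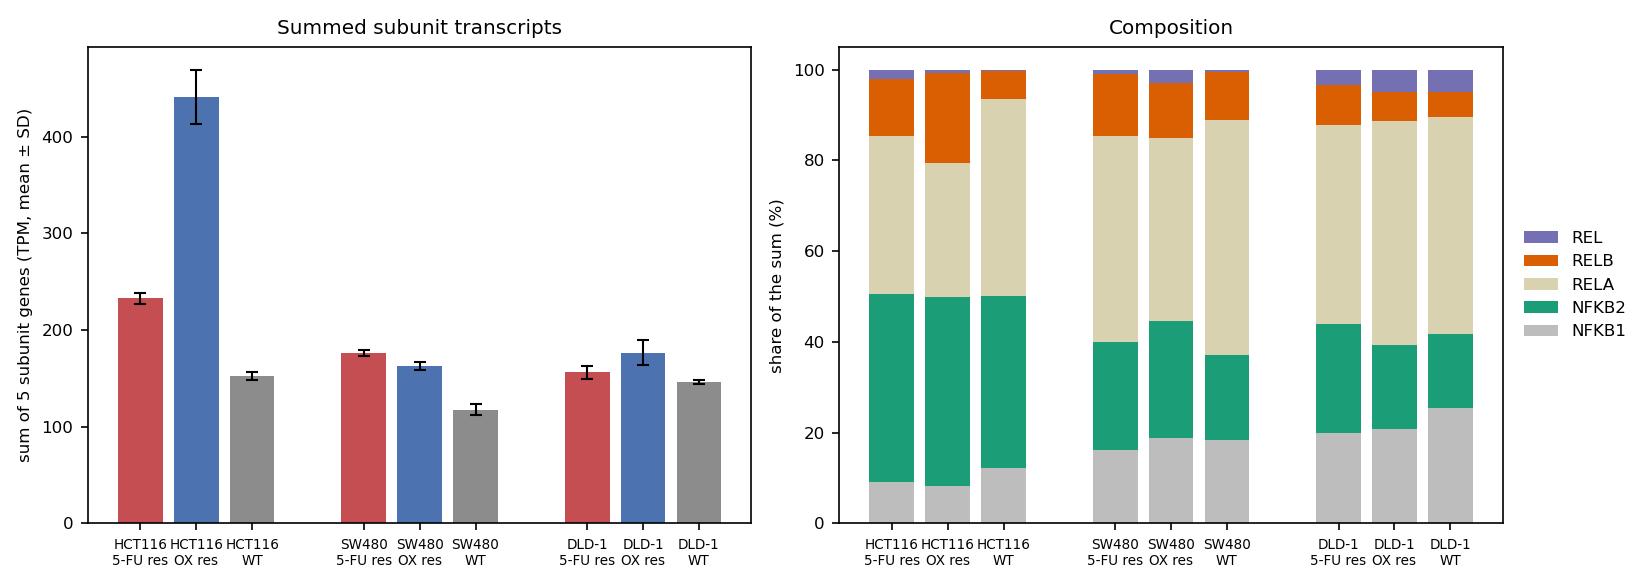
Left, summed TPM of the 5 subunit genes by group (mean ± SD, n = 3, vertical axis from 0), and right, the mean share of each gene in the sum in percent; groups stand as 5-FU res, OX res and WT in each line. The sum was highest in HCT116 OX res, at 441 TPM against 152 TPM in HCT116 WT, and RELB made up 20.0% and 6.3% of it.

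Ratios between members within a library do not change when all its values are multiplied by 1 factor. Quantile normalization and removal of the trend with transcript length are not of that kind, and the ratios were not recomputed under them. NFKB2 over NFKB1, the precursor of the alternative route over that of the classical one, had a geometric mean of 4.61 in HCT116 5-FU res and 5.13 in OX res, against 3.15 in WT. In SW480 it was 1.46 and 1.38 in 5-FU res and OX res, against 1.02 in WT, and in DLD-1 1.22 and 0.882, against 0.645. All 6 resistant groups therefore lay above their WT groups in this ratio, each with no overlap between libraries. RELB over RELA was 0.359 and 0.68 in HCT116 5-FU res and OX res, against 0.146 in WT. It was 0.304 and 0.298, against 0.202, in SW480 and 0.2 and 0.131, against 0.116, in DLD-1. REL over RELA differed most from WT in HCT116 5-FU res, at a log2 difference of 3.26, and in SW480 OX res, at 2.89. REL was under 1 TPM in the WT libraries of both lines, so that the size of these differences rests on few reads. In DLD-1 5-FU res REL over RELA was lower than in WT, at -0.40. NFKBIA over RELA was higher in HCT116 5-FU res and OX res, at 1.79 and 1.63, against 1.15 in WT. By contrast it was lower in DLD-1 5-FU res and OX res, at 0.7 and 0.594, against 0.858 in WT. In SW480 it was 0.57 in 5-FU res and 0.322 in OX res, against 0.389 in WT. Of the 24 comparisons of 4 ratios with WT, 22 reached 0.10, the smallest p that an exact permutation test of 3 against 3 libraries allows (2-sided, adjusted p = 0.109), so that no ratio could pass a threshold of 0.05. The others were RELB over RELA and REL over RELA in DLD-1 OX res, at exact permutation p = 0.40 and 0.70.

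**Figure D4:**
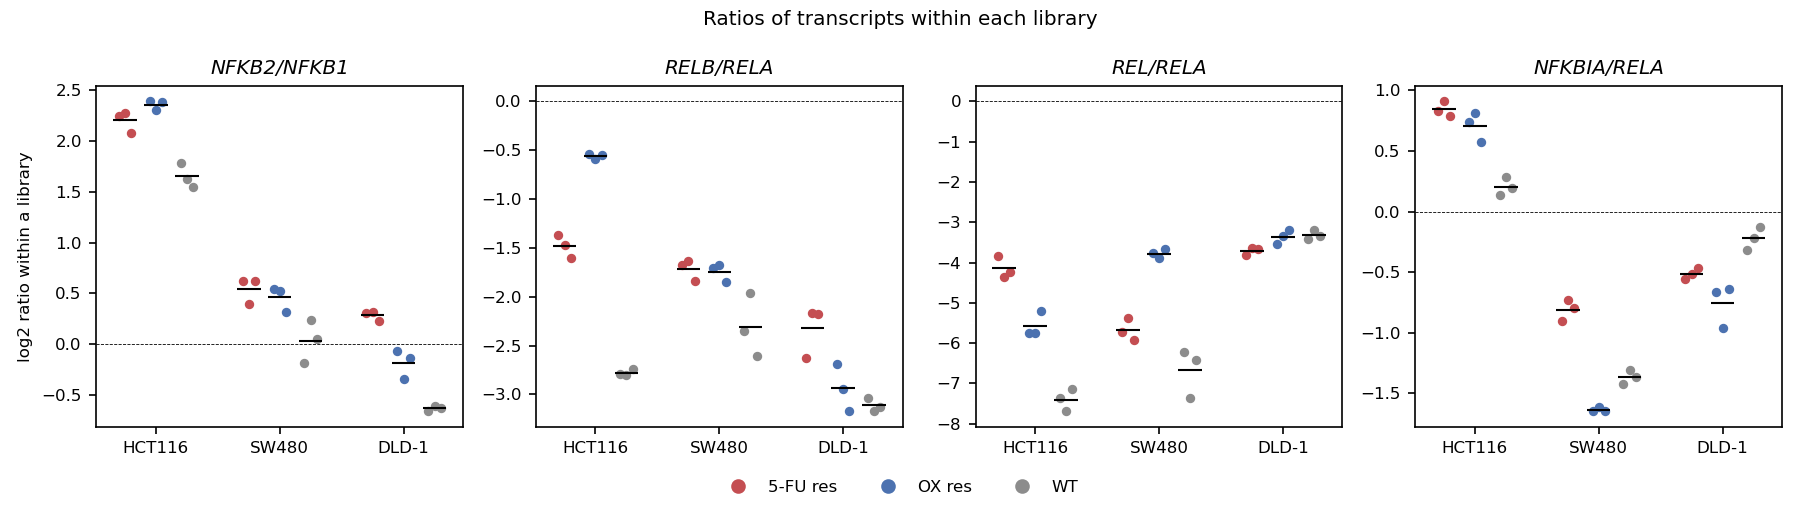
Log2 ratio of 2 members within each library for 4 pairs of members; points are libraries, bars group means, and the dashed line marks equal TPM, with 5-FU res, OX res and WT from left to right in each line. NFKB2 over NFKB1 lay above WT in all 6 resistant groups, and NFKBIA over RELA lay above WT in HCT116 and below WT in DLD-1.

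NFKBIA encodes IκBα, the inhibitor that is resynthesised first after activation (chr14:35870285-35873955, GRCh37). It was 145, 149 and 145 TPM in HCT116 5-FU res and 217, 212 and 205 TPM in OX res, against 76.1, 75.5 and 76.1 TPM in WT. The groups were far apart, with log2 fold changes of 0.94 ± 0.040 and, called, 1.47 ± 0.040 (limma adjusted p = 2.1e-11), or 0.75 and 0.87 relative to the median gene. The side of the threshold depended on scaling: in 5-FU res it passed with quantile normalization (1.08) and with the trend with transcript length removed (1.15), and in OX res it did not with FPKM as deposited (0.90) or median-of-ratios scaling (0.81). SW480 had 41.8, 46.9 and 48.2 TPM in 5-FU res and 20.4, 22.5 and 20.8 TPM in OX res, against 23.9, 23 and 24 TPM in WT. The drugs went apart here, with all 5-FU res libraries above and all OX res libraries below WT, at 0.92 ± 0.074 and -0.15 ± 0.074, neither called. DLD-1 had 48.9, 47.2 and 47.7 TPM in 5-FU res and 54.5, 50.3 and 50.3 TPM in OX res, against 56.3, 61.5 and 63 TPM in WT. Both resistant groups of DLD-1 were below WT, by log2 fold changes of -0.32 ± 0.056 and -0.22 ± 0.056 that were not called.

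NFKBIE encodes IκBε, another inhibitor that holds dimers in the cytoplasm (chr6:44225903-44233525, GRCh37). HCT116 had 9.72, 9.84 and 8.93 TPM in 5-FU res and 39.7, 37.9 and 41.8 TPM in OX res, against 11.5, 9.64 and 10.1 TPM in WT. OX res was apart from both other groups at 1.84 ± 0.079 (limma adjusted p = 8.2e-10), while 5-FU res overlapped WT at -0.12 ± 0.079. SW480 showed the reverse order, with 20.1, 21.4 and 20.7 TPM in 5-FU res and 10.1, 12.2 and 11.5 TPM in OX res, against 7.26, 7.47 and 7.36 TPM in WT. The call in SW480 5-FU res, 1.38 ± 0.086 (limma adjusted p = 1.4e-07), was lost under all other scalings, at 0.92 with FPKM as deposited, 0.91 by median-of-ratios and 0.81 by quantile normalization, and OX res was at 0.55 ± 0.086. DLD-1 had means of 12.7 ± 1.14 TPM in 5-FU res and 13.5 ± 1.39 TPM in OX res, against 9.28 ± 0.606 TPM in WT, with no overlap and no call.

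TNFAIP3 encodes A20, a ubiquitin-editing enzyme that shuts the pathway down after activation (chr6:138188351-138204451, GRCh37). It was 12.8, 11.5 and 12.2 TPM in HCT116 5-FU res and 21.5, 18.5 and 22.2 TPM in OX res, against 1.7, 1.71 and 1.8 TPM in WT. Means were 7.01 and 12 times that of WT, with log2 fold changes of 2.27 ± 0.089 (limma adjusted p = 1.6e-09) and 2.99 ± 0.089 (limma adjusted p = 4.7e-11). SW480 had 2.66, 2.86 and 2.71 TPM in 5-FU res and 1.55, 1.98 and 2.22 TPM in OX res, against 0.533, 0.313 and 0.395 TPM in WT. All resistant libraries were above WT, and both groups were called, at 1.41 ± 0.12 (limma adjusted p = 1.6e-06) and 1.04 ± 0.12 (limma adjusted p = 2.4e-05). The SW480 OX res call was lost without WT replicate 2 (0.99), without OX res replicate 3 (0.97) and under median-of-ratios scaling (0.86), FPKM as deposited (0.65), quantile normalization (0.67) and removal of the trend with transcript length (0.87). The SW480 5-FU res call was lost with FPKM as deposited (0.93) and quantile normalization (0.91). DLD-1 had 2.44, 2.3 and 1.66 TPM in 5-FU res and 2.43, 2.41 and 2.85 TPM in OX res, against 1.46, 1.32 and 1.42 TPM in WT. TNFAIP3 was above WT in all 6 of these libraries, at 0.38 ± 0.13 and 0.57 ± 0.13 with no call. It thus exceeded WT in all 18 resistant libraries, and the share of all genes that did so was not computed.

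BIRC3 encodes cIAP2, a ubiquitin ligase that acts with TRAF proteins downstream of TNF receptors (chr11:102188215-102210134, GRCh37), and was the most changed member in HCT116. It was 39.2, 36.7 and 41.5 TPM in HCT116 5-FU res and 39.2, 39.3 and 42.3 TPM in OX res, against 3.29, 2.79 and 2.99 TPM in WT. The means were 12.9 and 13.3 times that of WT, with log2 fold changes of 3.32 ± 0.074 (limma adjusted p = 1.8e-11) and 3.36 ± 0.074 (limma adjusted p = 5.7e-12), and the resistant groups overlapped each other. SW480 had 10.2, 8.71 and 8.93 TPM in 5-FU res and 3.46, 2.55 and 3.11 TPM in OX res, against 1.13, 0.992 and 1.22 TPM in WT. Every resistant library exceeded WT, with a call in 5-FU res at 2.28 ± 0.12 (limma adjusted p = 3.4e-08) and a value of 0.93 ± 0.12 in OX res that passed 1 without OX res replicate 2 (1.02) and with a pseudocount of 0.1 (1.36). DLD-1 had 3.33, 4.36 and 2.95 TPM in 5-FU res and 5.74, 5.8 and 6.39 TPM in OX res, against 4.22, 4.26 and 3.8 TPM in WT. The 5-FU res libraries overlapped WT and the OX res libraries were above it, at -0.17 ± 0.12 and 0.45 ± 0.12, neither called.

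TNFAIP2, a gene induced by TNF (chr14:103587813-103603776, GRCh37), had the widest range of all members, with group means from 0.317 to 118 TPM. HCT116 had 75.1, 73.1 and 75.7 TPM in 5-FU res and 120.0, 107 and 126 TPM in OX res, against 40.5, 39.2 and 38.5 TPM in WT. All groups were apart, with log2 fold changes of 0.90 ± 0.059 and 1.55 ± 0.059, with OX res called (limma adjusted p = 2.9e-10) but at 0.98 with FPKM as deposited and 0.90 with median-of-ratios scaling. SW480 had 83.8, 82.8 and 83 TPM in 5-FU res and 18.9, 17.4 and 18.8 TPM in OX res, against 16.6, 13.9 and 15.9 TPM in WT. Only 5-FU res was called, at 2.36 ± 0.075 (limma adjusted p = 1.1e-09), and OX res was at 0.24 ± 0.075, a sign that turned under 3 other scalings. DLD-1 had 0.491, 0.167 and 0.292 TPM in 5-FU res and 0.428, 0.494 and 0.204 TPM in OX res, against 0.394, 0.342 and 0.423 TPM in WT. These values are too low to be compared and overlapped between the groups.

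The resistant groups of a line were also compared with each other. In HCT116, 22.5% of all genes were called between 5-FU res and OX res, and 2 of 10 members were, RELB at -1.56 ± 0.077 (limma adjusted p = 3.2e-09) and NFKBIE at -1.96 ± 0.079 (limma adjusted p = 5.9e-10), both lower in 5-FU res. BIRC3 did not separate these groups, with a log2 difference of -0.040 ± 0.074 whose sign turned under the 3 other scalings. In SW480, 11.1% of all genes and 4 of 10 members were called. NFKBIA (1.07 ± 0.074), BIRC3 (1.35 ± 0.12) and TNFAIP2 (2.12 ± 0.075) were higher in 5-FU res, and REL (-1.18 ± 0.14) was lower in 5-FU res. The count in HCT116 was near the share of all genes. In SW480 the REL call was lost with FPKM as deposited (-0.97), and both REL (-0.91) and NFKBIA (0.98) missed the threshold once the trend with transcript length was removed. In DLD-1, 8.52% of all genes were called and, by limma, 0 of 9 members. Of these 9 members 5 had an adjusted p under 0.05, as did 62.9% of all genes, and 5 had an unadjusted p under 0.05. Among the members the largest difference was -0.63 ± 0.12 for BIRC3, lower in DLD-1 5-FU res. The comparisons of a line share libraries, so that their values are given side by side without a test of their overlap.

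Parental cells already differed in several members. Between HCT116 WT and SW480 WT, 25.1% of all genes were called and 3 of 10 members, NFKB2 (1.36 ± 0.060), NFKBIA (1.64 ± 0.052) and TNFAIP2 (1.3 ± 0.086), all higher in HCT116. TNFAIP3 (0.96 ± 0.10) was just under the threshold and passed without SW480 WT replicate 1 (1.02), and TNFAIP3 (1.15) and BIRC3 (1.07) passed with quantile normalization. Between HCT116 WT and DLD-1 WT, 34.5% of all genes and 3 of 10 members were called, NFKB2 (1.24 ± 0.060) and TNFAIP2 (4.86 ± 0.086) higher and REL (-2.54 ± 0.14) lower in HCT116. NFKB1 (-0.98 ± 0.074) just passed the threshold without HCT116 WT replicate 3 and was -0.50, -0.49 and -0.52 with FPKM as deposited, quantile normalization and median-of-ratios scaling. Between SW480 WT and DLD-1 WT, 35.9% of all genes and 4 of 10 members were called, TNFAIP2 (3.57 ± 0.086) higher and REL (-2.31 ± 0.14), NFKBIA (-1.31 ± 0.052) and BIRC3 (-1.27 ± 0.10) lower in SW480. The NFKBIA and BIRC3 calls were lost under each of the 3 other scalings, at -0.77 to -0.95, and RELB (0.54 in the TPM fit) was called with quantile normalization (1.08) and, just past 1, with median-of-ratios scaling. In none of these 3 comparisons did the members stand far from the share of all genes. The DLD-1 libraries carry another run of library names than those of HCT116 and SW480, so that line and library set cannot be told apart there.

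Whether the change from WT to resistant cells, called the effect here, differed between lines was tested directly. The number of selections behind a resistant group is not given. A gap between lines therefore cannot be told apart from a gap between selections. The paper reports raised resistance in viability assays for HCT116 and SW480 and does not describe DLD-1. For 5-FU, limma's F-test over the 3 lines called 6 of 10 members, against 38.7% of all genes, and for OX 8 of 10, against 39.3%. BIRC3 had the widest spread for both drugs, with log2 effects of 3.32 in HCT116, 2.28 in SW480 and -0.17 in DLD-1 for 5-FU (limma adjusted p = 3.2e-15), and 3.36, 0.93 and 0.45 for OX (limma adjusted p = 3.0e-14). RELB differed for OX, with a gap of 2.63 between the highest effect in HCT116 and the lowest in DLD-1 (limma adjusted p = 5.9e-12). Among members called for both drugs, the line of the largest effect changed for REL, from HCT116 for 5-FU to SW480 for OX. It changed the other way for NFKBIE and TNFAIP2, from SW480 for 5-FU (1.38 and 2.36) to HCT116 for OX (1.84 and 1.55). NFKB1 and RELA were not called for either drug, nor NFKB2 and RELB for 5-FU, and the OX call of NFKB2 was lost with FPKM as deposited (0.81) and median-of-ratios scaling (0.81). In DLD-1 the effect of TNFAIP2 rests on values at or under 0.494 TPM, so that the gap in this gene is between HCT116 or SW480 and a line that barely expresses it.

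The other genes of the pathway, 125 in 6 lists, are given for context. Genes that reached 1 TPM only in resistant libraries, such as IL1B in HCT116 and CXCL8 in SW480, lean these counts to higher values. The lists were counted and their leading genes named in the TPM fit only, not under other scalings. In HCT116 OX res that fit called 3991 of all genes higher and 676 lower, against 1426 and 1857 with median-of-ratios scaling. In HCT116 5-FU res 17 of 104 tested were called higher and 5 lower, near the 11.6% and 3.82% of all genes, and in OX res 59 and 3, beside 28.5% and 4.83%. SW480 had 31 higher and 1 lower of 100 in 5-FU res, beside 18.3% and 2.85% of all genes, and 19 and 2 in OX res, beside 13.7% and 1.22%. DLD-1 had 7 and 0 of 96 in 5-FU res, beside 2.12% and 1.76%, and 6 and 1 in OX res, beside 2.7% and 0.913%. Target genes were the longest list, to be read beside the same shares of all genes. Of 40 tested in HCT116, 12 were called higher and 2 lower in 5-FU res, and 29 and 2 in OX res. Of 42 in SW480, 18 were called higher and 1 lower in 5-FU res, and 12 and 2 in OX res. Of 35 in DLD-1, 7 were called higher and 0 lower in 5-FU res, and 5 and 0 in OX res. In HCT116 OX res, where 28.5% of all genes were called higher, receptors were called higher in 7 of 12 cases and kinases in 7 of 12, with 0 lower in either list. The median log2 fold change there was 1.27 over the receptors and 1.06 over the kinases, beside 0.60 over all genes. In HCT116 5-FU res the receptors had 0 and the kinases 1 of 12 called higher, which is near the 11.6% of all genes, and 0 lower. Adaptors and ubiquitin ligases were called higher in 9 of 20 cases and other inhibitors in 9 of 18 in HCT116 OX res, with 0 lower in both. Over all 6 lists the median log2 fold change was 0.33 and 1.1 in HCT116 5-FU res and OX res, beside 0.18 and 0.60 over all genes. In SW480 it was 0.77 and 0.54, beside 0.44 and 0.36, and in DLD-1 0.12 and 0.17, beside -0.027 and 0.13.

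The leading gene of each list follows, with mean TPM ± SD (n = 3) and the log2 fold change ± SE from limma. LTB in HCT116 and SW480, IL1B and IL1RAP in HCT116 and CXCL8 in SW480 had WT means under 1 TPM. They passed the filter on low values through resistant libraries, and the size of their fold changes rests on the pseudocount. Among ligands, LTB, lymphotoxin beta, averaged 4.44 ± 1.18 TPM in HCT116 5-FU res and 0.405 ± 0.0955 TPM in HCT116 WT cells (log2 fold change 1.93 ± 0.17). The adaptor IRAK2 of the interleukin-1 route averaged 8.73 ± 0.296 TPM in HCT116 5-FU res and 1.87 ± 0.209 TPM in HCT116 WT cells (log2 fold change 1.76 ± 0.11). TAB3, a partner of the kinase TAK1, averaged 22.9 ± 1.76 TPM in HCT116 5-FU res and 5.14 ± 0.127 TPM in HCT116 WT cells (log2 fold change 1.96 ± 0.083). Among brakes the ubiquitin ligase ITCH averaged 31.8 ± 3.15 TPM in HCT116 5-FU res and 13.2 ± 1.31 TPM in HCT116 WT cells (log2 fold change 1.21 ± 0.095), and among targets the syndecan SDC4 292 ± 9.83 TPM in HCT116 5-FU res and 82.3 ± 0.786 TPM in HCT116 WT cells (log2 fold change 1.82 ± 0.039).

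For HCT116 and OX, the complement gene C3, a target, averaged 135 ± 10.3 TPM in HCT116 OX res and 2.13 ± 0.0586 TPM in HCT116 WT cells (log2 fold change 5.44 ± 0.092). The adaptor TRAF1, also a target, averaged 16.8 ± 1.98 TPM in HCT116 OX res and 1 ± 0.136 TPM in HCT116 WT cells (log2 fold change 3.15 ± 0.14), and the cytokine IL1B 6.56 ± 0.104 TPM in HCT116 OX res and 0.0269 ± 0.0466 TPM in HCT116 WT cells (log2 fold change 2.88 ± 0.12). MAP3K14, which encodes NIK, the kinase of the alternative route, averaged 49.7 ± 4.36 TPM in HCT116 OX res and 10.4 ± 0.399 TPM in HCT116 WT cells (log2 fold change 2.15 ± 0.080). The receptor subunit IL1RAP averaged 6.26 ± 1.1 TPM in HCT116 OX res and 0.576 ± 0.35 TPM in HCT116 WT cells (log2 fold change 2.22 ± 0.18) and TRIM68 33.4 ± 2.69 TPM in HCT116 OX res and 5.89 ± 0.464 TPM in HCT116 WT cells (log2 fold change 2.32 ± 0.093).

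For SW480 and 5-FU, the chemokine CXCL8 averaged 21.2 ± 1.59 TPM in SW480 5-FU res and 0.0495 ± 0.043 TPM in SW480 WT cells (log2 fold change 4.4 ± 0.12), LTB 10.1 ± 0.809 TPM in SW480 5-FU res and 0.156 ± 0.16 TPM in SW480 WT cells (log2 fold change 3.27 ± 0.14) and TRAF1 8.72 ± 0.494 TPM in SW480 5-FU res and 1.16 ± 0.223 TPM in SW480 WT cells (log2 fold change 2.17 ± 0.11). The receptor TLR4 averaged 16.6 ± 0.647 TPM in SW480 5-FU res and 3.54 ± 0.555 TPM in SW480 WT cells (log2 fold change 1.96 ± 0.10), and the IκB-like gene BCL3 10.2 ± 0.243 TPM in SW480 5-FU res and 2.8 ± 0.502 TPM in SW480 WT cells (log2 fold change 1.57 ± 0.14). IKBKB, a catalytic subunit of the IκB kinase, averaged 18.5 ± 1.24 TPM in SW480 5-FU res and 8.25 ± 0.251 TPM in SW480 WT cells (log2 fold change 1.07 ± 0.091). For SW480 and OX, TLR4 averaged 27.3 ± 1.66 TPM in SW480 OX res and 3.54 ± 0.555 TPM in SW480 WT cells (log2 fold change 2.65 ± 0.10), and the growth factor CSF2 13.4 ± 2.3 TPM in SW480 OX res and 1.55 ± 0.575 TPM in SW480 WT cells (log2 fold change 2.51 ± 0.17). The paracaspase MALT1 averaged 34.4 ± 2.2 TPM in SW480 OX res and 12.3 ± 3.25 TPM in SW480 WT cells (log2 fold change 1.44 ± 0.15), the ubiquitin ligase PELI1 10.5 ± 0.538 TPM in SW480 OX res and 3.59 ± 0.668 TPM in SW480 WT cells (log2 fold change 1.33 ± 0.12), and CHUK, the other catalytic subunit of the IκB kinase, 33.9 ± 4.31 TPM in SW480 OX res and 15.1 ± 2.53 TPM in SW480 WT cells (log2 fold change 1.12 ± 0.13).

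DLD-1 was not without changed pathway genes. CXCL8 led the targets in both of its resistant groups, averaging 11.4 ± 0.878 TPM in DLD-1 5-FU res and 1.21 ± 0.0953 TPM in DLD-1 WT cells (log2 fold change 2.49 ± 0.12) and 6.35 ± 1.15 TPM in DLD-1 OX res and 1.21 ± 0.0953 TPM in DLD-1 WT cells (log2 fold change 1.72 ± 0.12). The receptor TNFRSF12A, which binds TWEAK, averaged 286 ± 15.3 TPM in DLD-1 OX res and 107 ± 4.87 TPM in DLD-1 WT cells (log2 fold change 1.41 ± 0.050). The alarmin IL33 was lower, averaging 38.4 ± 1.5 TPM in DLD-1 OX res and 157 ± 6 TPM in DLD-1 WT cells (log2 fold change -2.01 ± 0.053).

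Across the 9 group means of log2(TPM + 1), TNFAIP3 and BIRC3 had the highest Pearson r of the 45 pairs of members (r = 0.97, Spearman rho = 0.90), followed by NFKB2 and TNFAIP3 (r = 0.93, rho = 0.72). By Spearman's rho RELA and BIRC3 came first (rho = 0.93, r = 0.83). In all, 13 pairs had an r above 0.8 and 5 an r below 0, with REL and TNFAIP2 at -0.60. Among all 15800 other genes compared, those closest to TNFAIP2 were ZNF512B (r = 0.995), CMTM3 (r = 0.993) and SYNGR1 (r = 0.990). These had group means at or under 0.204 TPM in DLD-1, where TNFAIP2 was also low. Closest to BIRC3 were MEAF6 (r = 0.985), LOC389906 (r = 0.975) and TRIM8 (r = 0.973), and among those closest to TNFAIP3 were RRM2B (r = 0.979) and ARL14EP (r = 0.977). The 9 points share lines and WT groups and describe these groups only.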

How the data were processed

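RNA was measured in 27 libraries of HCT116, SW480 and DLD-1 cells. Stranded mRNA libraries were read as single reads, and the authors aligned them to hg19 with TopHat2 2.1.1 (Bowtie2 2.2.8, SAMtools 0.1.18) and computed FPKM with Cufflinks (named in the methods) or Cuffdiff 2.2.1 (named in the submitters' processing notes). The deposited FPKM of 26255 symbols keep no read counts, and the errors given reflect how far libraries of a group lie apart. TPM is FPKM divided by the sum of the library.

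With R 4.3.3 and limma 3.58.1 (lmFit, contrasts.fit, eBayes with trend, 2-sided), log2(TPM + 1) was fitted per line for genes reaching 1 TPM in 3 or more of 9 libraries, and over all 27 libraries for WT cells and for the F-tests between lines. Calls needed a log2 fold change beyond 1 at an adjusted p under 0.05, for F-tests a gap above 1 between the highest and the lowest effect. Within-library ratios were compared with exact permutation tests in Python 3.11.15 with scipy 1.17.1. The steps were tested on simulated data. Alternatives were a pseudocount of 0.1, no filter, a filter at a mean of 5 TPM, median-of-ratios scaling, quantile normalization, FPKM as deposited, no eBayes trend, only the compared groups, the replicate number as a block, removal of the trend with transcript length and each library left out.

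Named are all members, the called gene with the largest change in each list and comparison with WT, and the 3 genes most correlated with each of the 3 members of widest range, of which some are not reported here. Members and lists were chosen with earlier results of these data known. Gene positions are GENCODE v44 lifted to GRCh37, and promoters are RefSeq GRCh38.p14. Antisense transcripts overlap exons of RELA, TNFAIP3, BIRC3 and TNFAIP2 and a lncRNA on the same strand overlaps REL; none has a symbol of its own in the tables, and the strand setting of the quantification is not given in the sources used here.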

Additional observations from a re-analysis of the deposited data

Results flagged for a closer look

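The effect of resistance differed between the 3 lines by limma's F-test for 6 members under 5-FU and 8 under OX, each with an adjusted p under 0.05 over all genes and a gap above 1 (log2) between the highest and the lowest effect. Among all genes 38.7% and 39.3% met the same rule for 5-FU and OX, so that a difference between lines is common in these libraries.
For 5-FU, REL had a gap of 2.38 between HCT116 and DLD-1 (adjusted p = 1.2e-09), NFKBIA had a gap of 1.26 between HCT116 and DLD-1 (adjusted p = 2.5e-13), NFKBIE had a gap of 1.49 between SW480 and HCT116 (adjusted p = 2.8e-10). In the same test, TNFAIP3 had a gap of 1.89 between HCT116 and DLD-1 (adjusted p = 1.9e-10), BIRC3 had a gap of 3.49 between HCT116 and DLD-1 (adjusted p = 3.2e-15), TNFAIP2 had a gap of 2.44 between SW480 and DLD-1 (adjusted p = 1.8e-13). For OX, NFKB2 had a gap of 1.24 between HCT116 and DLD-1 (adjusted p = 4.2e-11), RELB had a gap of 2.63 between HCT116 and DLD-1 (adjusted p = 5.9e-12), REL had a gap of 1.60 between SW480 and DLD-1 (adjusted p = 3.8e-07). In the same test, NFKBIA had a gap of 1.68 between HCT116 and DLD-1 (adjusted p = 1.5e-15), NFKBIE had a gap of 1.34 between HCT116 and DLD-1 (adjusted p = 2.5e-10), TNFAIP3 had a gap of 2.42 between HCT116 and DLD-1 (adjusted p = 9.6e-13), BIRC3 had a gap of 2.90 between HCT116 and DLD-1 (adjusted p = 3.0e-14), TNFAIP2 had a gap of 1.57 between HCT116 and DLD-1 (adjusted p = 1.1e-10). HCT116 or SW480 was the line of the highest effect in every one of these cases. The part of the library set of DLD-1 in the gaps cannot be told apart from that of the line. Nor can the part of the selections behind each resistant group.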

How the results depend on the processing

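Fit settings without a new scaling changed little: no filter, eBayes without trend and fits of only the compared groups left each member's direction and side of the threshold as reported. Replicate numbers do not pair the samples, since the correlation of deviations between same-numbered libraries ran from -0.20 to 0.22 and 5 of 27 pairs were above 0.1. In comparisons of a library with the 3 libraries of another group of its line, the best correlation fell on the same number in 12 of 27. With the number as a block the counts of members called remained 4 and 8 (HCT116 5-FU res and OX res), 4 and 2 (SW480) and 0 and 0 (DLD-1), and calls over all genes were 2160 and 4667 in HCT116.

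The members called in HCT116 OX res were 5 with FPKM as deposited or median-of-ratios scaling, against 8. In SW480 5-FU res they were 2 with a mean TPM of 5 or more, FPKM or quantile normalization, against 4, and in SW480 OX res 0 with a mean TPM of 5 or more and 1 with FPKM, quantile normalization, median-of-ratios scaling or the length trend removed, against 2 (range 1 to 3 with single libraries left out). Between SW480 5-FU res and OX res they were 2 with a mean TPM of 5 or more or the length trend removed, against 4. Between HCT116 WT and SW480 WT they were 5 with a pseudocount of 0.1 or quantile normalization, against 3, and between SW480 WT and DLD-1 WT 2 with FPKM, against 4. The mean TPM filter removes REL, TNFAIP3 or BIRC3 where they are low. The cause of the other changes was not tested.

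Of the uncalled values, 11 changed sign where either fit had an adjusted p under 0.05 (FPKM, quantile, median-of-ratios, length trend, as far as each did). NFKB1 in HCT116 5-FU res went to -0.031, -0.049, -0.075 and -0.17, and in SW480 5-FU res to -0.034, -0.025 and -0.089. BIRC3 between HCT116 5-FU res and OX res went to 0.29, 0.33 and 0.35, and between HCT116 WT and DLD-1 WT to 0.027, 0.12, 0.027 and 0.073. RELA went to -0.058 and -0.11 in SW480 5-FU res, to -0.31 and -0.33 for SW480 OX res, 0.38 and 0.37 between HCT116 WT and DLD-1 WT and 0.31 and 0.30 between SW480 WT and DLD-1 WT (FPKM and median-of-ratios). TNFAIP2 in SW480 OX res went to -0.17, -0.22 and -0.19. Between SW480 WT and DLD-1 WT, NFKB2 went to 0.37, 0.35 and 0.37 and NFKBIE to 0.16, 0.32 and 0.16. With an adjusted p of 0.05 or more in both fits, 13 further sign changes in 9 values included NFKBIA (0.057, 0.075 and 0.058) and NFKBIE (0.068, 0.16 and 0.072) between DLD-1 5-FU res and OX res, and with the length trend removed NFKBIE in HCT116 5-FU res (0.096) and NFKBIA in SW480 OX res (0.025).

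Calls over all genes moved by over 1.5 times in HCT116 OX res (4667, against 2804 with FPKM and 2582 with quantile normalization), SW480 5-FU res (2976, against 1859 with either), SW480 OX res (2101, against 1098, 1191 and, with median-of-ratios scaling, 1387, and 3181 with a pseudocount of 0.1), SW480 5-FU res against OX res (1558, 1021 with a mean TPM of 5 or more), DLD-1 5-FU res (523, 856 with a pseudocount of 0.1), DLD-1 OX res (486, 734 with a pseudocount of 0.1, 302 with a mean TPM of 5 or more, 295 with FPKM) and DLD-1 5-FU res against OX res (1148, 759 with FPKM). The share of calls that were higher was 85.5% in HCT116 OX res and 43.4% with median-of-ratios scaling, 75.2% and 48.2% in HCT116 5-FU res, 86.6% and 50.5% for SW480 5-FU res, 91.9% and 56.3% for SW480 OX res, and 74.7% and 64.7% in DLD-1 OX res. Read depth per library is not known in absolute terms, so no change can be read where both groups are under 1 TPM, as for TNFAIP2 in DLD-1, and the size of a change is uncertain where WT alone is, as for REL in HCT116 and SW480 and TNFAIP3 in SW480.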
